A study of Mus musculus with 6 samples.

Results

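miR-128 is a miRNA of the brain that is enriched in neurons, and in the miRBase names used here it is accompanied by a pair of star strands, miR-128-1* and miR-128-2*. These 3 entries were chosen by name, as every entry named miR-128 or as one of its star strands among the 1055 mature miRNAs of the tables, and all 3 reached 100 reads in every library. Small RNA was sequenced from whole brains of adult female siblings of the 129SV strain at 5.5 months of age, 3 wild-type and 3 Adar2-/-, with a separate library for each brain. Mice of both genotypes were homozygous for the pre-edited Gria2 allele (Gria2R/R), which lets mice without ADAR2 survive, and the Adar2-/- brains still have ADAR1. The comparison asked whether the level of mature miR-128 and the balance of its strands differed in brains without ADAR2, the enzyme that converts adenosines in double-stranded RNA to inosines.

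The miR-128 guide strand comes from the 3′ arm of a hairpin, where it is cut out by Drosha and Dicer and loaded into an Argonaute protein, whereas the strand of the opposite arm, the star, is mostly degraded. A pair of genes encodes the same guide, each within an intron of a host gene. miR-128 rises as neurons mature, and mice that lack it in forebrain neurons become hyperactive and die of seizures.

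On NCBIM37 the Mir128-1 hairpin lies on the plus strand of chromosome 1 from 130098932 to 130099013, and it falls in an intron of both R3hdm1 transcripts that span it and in no exon. The Mir128-2 hairpin lies on the minus strand of chromosome 9 from 112021136 to 112021219, in an intron of all 12 spanning transcripts of Arpp21, which encodes a cyclic AMP-regulated phosphoprotein of neurons. Both host genes run on the same strand as their hairpin. The guide occupies chr1:130098981-130099001 and chr9:112021148-112021168, with miR-128-1* at chr1:130098946-130098966 and miR-128-2* at chr9:112021183-112021205.

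The mature sequences are shown because the guide cannot tell the hairpins apart and the star strands can. All 3 members matched an entry of the RefSeq table (GRCm38.p6), where miR-128 is miR-128-3p and the stars are miR-128-1-5p and miR-128-2-5p, and each was found unchanged in the NCBIM37 hairpins. They are written 5′ to 3′ with the seed, bases 2 to 8, in capitals.
miR-128: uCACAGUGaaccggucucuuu
miR-128-1*: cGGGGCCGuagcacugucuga
miR-128-2*: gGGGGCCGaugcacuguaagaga

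Both star strands carry the seed GGGGCCG, which no other of the 1679 mature names in the RefSeq table shares. Over the 21 positions that both have, counted from 1 at the 5′ end, 16 were identical and 5 differed (C1G, U9A, A10U, C18A and U19A, the base of miR-128-1* first). Reads were mapped with roughly 2 mismatches allowed. Per the paper, its local alignment disregards mismatches close to a read's end, and C1G, C18A and U19A lie near the ends. Whether reads of the stars were kept apart in mapping was not tested. miR-128 was the sole mature name with the seed CACAGUG, but its first 8 bases, UCACAGUG, stand from base 2 on in miR-27a and miR-27b, which are printed for comparison with their own seed in capitals.
miR-27a: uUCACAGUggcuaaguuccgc
miR-27b: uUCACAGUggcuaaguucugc

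The precursors of the RefSeq table, 70 and 76 nucleotides long and thus shorter than the annotated hairpins, were folded with RNAfold. In the precursor of Mir128-1, 15 of the 21 bases of miR-128-1* paired with the guide at a minimum free energy of -29.3 kcal/mol. In that of Mir128-2, 16 of the 23 bases of miR-128-2* paired with the guide, at -37.3 kcal/mol. A stretch of 14 bases separated star and guide in either precursor. miR-128-1* holds 3 adenosines, miR-128-2* 6 and the guide 4.

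Total mapped miRNA reads ran from 12449633 to 23935544 per library, and levels are given as reads per 1000000 of these (RPM). Genotypes were compared with edgeR over the 399 miRNAs that reached 100 reads in all libraries. P-values were adjusted after Benjamini and Hochberg with 0.05 as the threshold, and a log2 fold change above 0 means a higher level in Adar2-/-. Of these, 0 (0%) passed, 13 (3.26%) had an unadjusted p under 0.05, and DESeq2 called 1. Each brain was sequenced in a lane of its own, so lane and brain cannot be told apart, and Adar2 mRNA was not analysed here, so the genotype labels were not checked against it. Libraries stood apart for some miRNAs of other cell types. miR-375, of neuroendocrine cells, was at 3294 RPM in wild type 1 and at 42.9 to 113 in the others. The neuroendocrine miR-7a did not set that library apart, at 2976 RPM there and at 898 to 3585 in the others. miR-183, of sensory cells and the pineal gland, was at 9052 RPM in Adar2-/- 3 and at 50165 to 83418 in the others. In the same list miR-182 was at 10036 RPM in Adar2-/- 3 and at 32506 to 103156 in the others. miR-96 differed less, at 70.6 RPM in Adar2-/- 3 and at 85.0 to 330 in the others. The summed level of miR-182, miR-183 and miR-96 lay between 108156 and 155374 RPM in the wild-type and between 19158 and 186903 RPM in the Adar2-/- libraries, and that of miR-375 and miR-7a between 1010 and 6270 and between 1192 and 3640 RPM. None of these 5 markers was at 0 over the libraries, none of the 5 was called, and their part in the results on miR-128 was not tested.

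The guide miR-128 was the most abundant of the 3 entries in every library and varied most among them. It had 8586, 8792 and 10234 reads in wild type 1 to 3, which is 690, 386 and 436 RPM, and 8525, 20022 and 31569 reads in Adar2-/- 1 to 3, which is 457, 849 and 1319 RPM. Adar2-/- 2 and 3 lay above all other libraries, while Adar2-/- 1 lay within the range of wild type, so that the genotypes overlapped. Wild type averaged 504 ± 163 RPM (SD, n = 3) and Adar2-/- 875 ± 431 RPM (SD, n = 3), 1.74 times as much (p = 0.2 in a two-sided exact permutation test, where 0.1 is the smallest p that 3 against 3 libraries allow). Libraries of Adar2-/- that all lay above wild type were found for 2.76% of the 399 miRNAs. EdgeR put the log2 fold change of miR-128 at 0.80 (standard error 0.433, 95% interval -0.17 to 1.76, adjusted p = 0.988). In whole brain, a change in the number of cells of a type and a change in RNA per cell cannot be told apart.

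**Figure D1:**
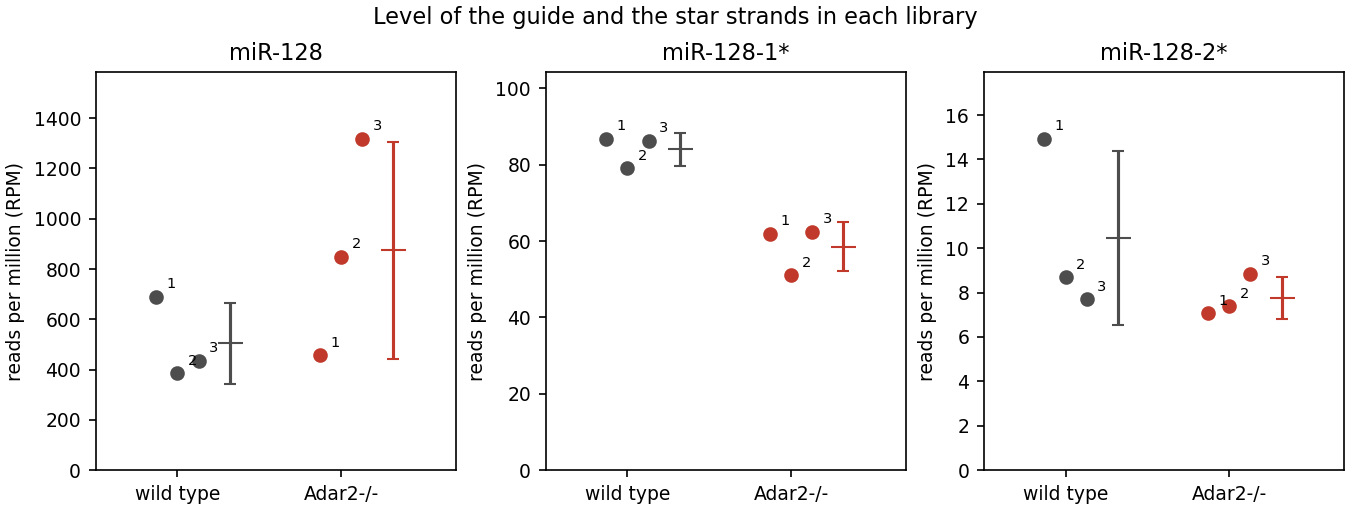
Level of miR-128, miR-128-1* and miR-128-2* in RPM (y axis, from 0, with a scale of its own in each panel) in wild-type and Adar2-/- brains. Points are libraries numbered by replicate, and bars give the mean ± SD of 3 libraries. The 3 Adar2-/- libraries lay below all wild-type libraries for miR-128-1* only, and miR-128 reached 1319 RPM in Adar2-/- 3.

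Within replicate numbers, Adar2-/- divided by wild type was 0.663, 2.20 and 3.02 for miR-128 in replicates 1 to 3. Among the 399 miRNAs its coefficient of variation over the 6 libraries, 51.6%, stood at percentile 86.7. Without replicate 1 of both genotypes the log2 fold change was 1.40 and passed the threshold (edgeR, adjusted p = 0.0476), whereas it was 0.37 without Adar2-/- 3 (adjusted p = 0.995). Leaving out replicate 1 also raised the number of called miRNAs from 0 to 18, each of them higher in Adar2-/-. The column names of replicate 1 lack a number that those of the other replicates carry. The labels do not say what this marks, and its part in these results was not tested.

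miR-128-1*, the star strand of the R3hdm1 hairpin, was lower in all Adar2-/- libraries. It had 1081, 1801 and 2026 reads in wild type 1 to 3 and 1155, 1204 and 1495 reads in Adar2-/- 1 to 3. In relative terms these were 86.8, 79.1 and 86.3 RPM in wild type and 61.9, 51.0 and 62.5 RPM in Adar2-/-, so that the highest Adar2-/- library lay below the lowest wild-type library. Such a complete separation with lower levels in Adar2-/- was found for 3.01% of the 399 miRNAs. Wild type averaged 84.1 ± 4.34 RPM (SD, n = 3) and Adar2-/- 58.5 ± 6.44 RPM (SD, n = 3), 1.44-fold less (p = 0.1 in the exact permutation test, the smallest p possible).

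The edgeR log2 fold change of miR-128-1* was -0.52 (standard error 0.297, 95% interval -1.18 to 0.14, adjusted p = 0.988), so it did not pass over all miRNAs. The unadjusted p was 0.108 in edgeR. Adar2-/- divided by wild type was 0.713, 0.646 and 0.724 in replicates 1 to 3, a narrow range next to the values of the guide. miR-128-1* therefore met the rule of the same direction in all 3 replicate numbers and a change of at least 1.3-fold, together with 4.26% of the 399 miRNAs that were lower by it and beside 5.51% that were higher. The study applied a rule of this kind to the same libraries, so this is no independent evidence. Neither miR-128 nor miR-128-2* met it with all libraries and total mapped reads, but miR-128 met it as higher without replicate 1, and miR-128-2* met it as lower without replicate 3 and with totals that omit the 5 most abundant miRNAs. The spread of miR-128-1* within a genotype was small, with a coefficient of variation of 5.17% in wild type and 11.0% in Adar2-/-, against 32.3% and 49.3% for the guide.

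miR-128-2*, the star strand of the Arpp21 hairpin, was the least abundant entry. It had 186, 198 and 181 reads in wild type 1 to 3, which is 14.9, 8.69 and 7.71 RPM, and 132, 174 and 212 reads in Adar2-/- 1 to 3, which is 7.08, 7.38 and 8.86 RPM. Wild type 1 stood above the rest. Its exact Poisson 95% interval ran from 12.9 to 17.2 RPM, whereas the intervals of the other 5 libraries together covered 5.92 to 10.1 RPM. Such intervals cover counting error only, since PCR reads are not independent molecules.

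The genotypes overlapped for miR-128-2*, which averaged 10.4 ± 3.92 RPM (SD, n = 3) in wild type against 7.77 ± 0.952 RPM (SD, n = 3) in Adar2-/- (p = 0.3, exact permutation test). EdgeR gave a log2 fold change of -0.42 (standard error 0.349, 95% interval -1.20 to 0.36, adjusted p = 0.988). Without wild type 1, the library in which miR-375 stood apart, the log2 fold change was -0.08. Adar2-/- divided by wild type was 0.474, 0.849 and 1.15 in replicates 1 to 3, so the direction was not the same in all of them.

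The star strands of the hairpins can be compared directly, since they come from different loci. miR-128-1* had more reads than miR-128-2* in each of the 6 libraries, with 5.81, 9.10 and 11.2 reads for each read of miR-128-2* in wild type 1 to 3 and 8.75, 6.92 and 7.05 in Adar2-/- 1 to 3. The geometric mean over the libraries was 7.93, a log2 ratio of 2.99 ± 0.34 (SD, n = 6, two-sided exact sign-flip permutation test, p = 0.0312, the smallest p possible with 6 libraries). This compares reads of different sequences in a ligation-based library, and it does not give the share of the guide that each hairpin supplied. The log2 ratio averaged 3.07 ± 0.48 (SD, n = 3) for wild type and 2.91 ± 0.19 (SD, n = 3) for Adar2-/-, and the difference of -0.16 was smaller than the replicate SD (p = 0.6, exact permutation test). The sign of this difference turned without wild type 3, to 0.05, and without replicate 3, to 0.10.

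The guide and star strands were next compared within each library, where the total of reads cancels. For each read of miR-128-1* there were 7.94, 4.88 and 5.05 guide reads in wild type 1 to 3 and 7.38, 16.6 and 21.1 in Adar2-/- 1 to 3. Adar2-/- 1 lay within the wild-type range, and Adar2-/- 2 and 3 lay far outside it. The log2 ratio of miR-128-1* to miR-128 averaged -2.54 ± 0.39 (SD, n = 3) for wild type and -3.78 ± 0.79 (SD, n = 3) for Adar2-/-, which differ by -1.24 (p = 0.2, exact permutation test).

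For each read of miR-128-2* there were 46.2, 44.4 and 56.5 guide reads in wild type 1 to 3 and 64.6, 115 and 149 in Adar2-/- 1 to 3. Here the genotypes did not overlap, which was so in the same direction for 7.69% of the 91 star/guide pairs with at least 100 reads on both strands in every library. The log2 ratio of miR-128-2* to miR-128 averaged -5.60 ± 0.19 (SD, n = 3) for wild type and -6.69 ± 0.62 (SD, n = 3) for Adar2-/-, which differ by -1.08 (p = 0.1, exact permutation test, the smallest p possible). The guide reads are the same in both ratios, so their changes are not independent of each other. These reads can come from either hairpin, so neither ratio is that of a single hairpin. With both stars added, the log2 ratio to miR-128 averaged -2.37 ± 0.34 (SD, n = 3) for wild type and -3.60 ± 0.77 (SD, n = 3) for Adar2-/-. These differ by -1.23 (p = 0.2, exact permutation test).

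**Figure D2:**
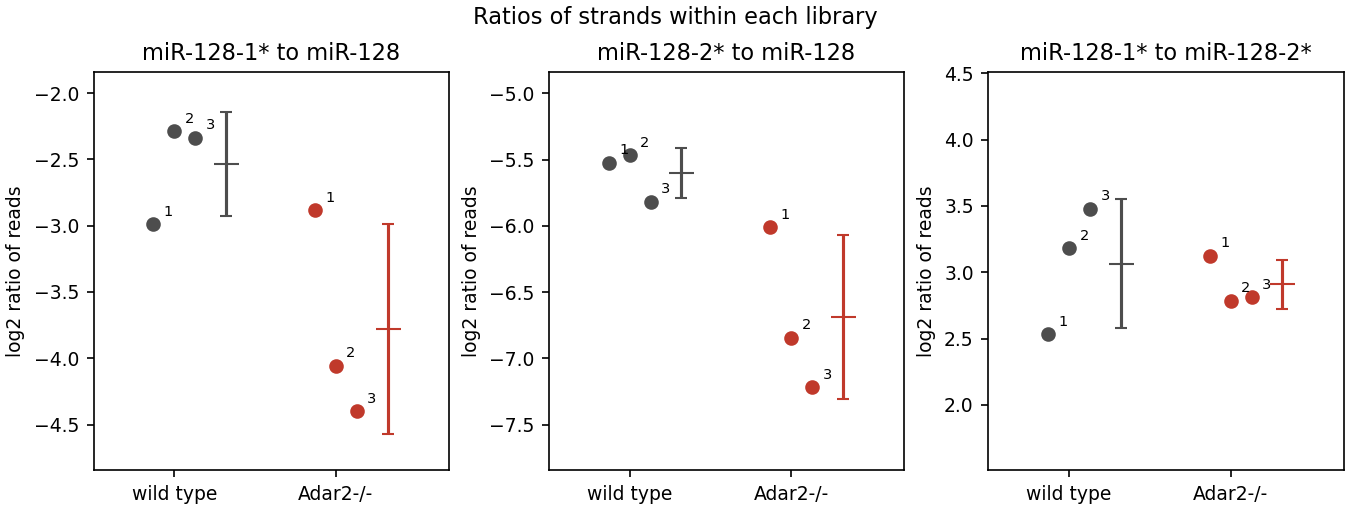
Log2 ratio of reads within a library (y axis) for miR-128-1* to miR-128, miR-128-2* to miR-128 and miR-128-1* to miR-128-2*, with points for libraries numbered by replicate and bars for the mean ± SD of 3 libraries. All panels span the same number of log2 units. Both ratios to the guide were lowest in Adar2-/- 2 and 3, whereas the ratio between the stars overlapped between genotypes.

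When limma was fitted over all 91 pairs, the difference was -1.24 for miR-128-1* (95% interval -2.33 to -0.15) and -1.08 for miR-128-2* (95% interval -2.04 to -0.13). Either had an adjusted p of 0.693 in limma, and 0 of the 91 pairs (0%) passed. Unadjusted, the p was 0.0295 for miR-128-1* and 0.0305 for miR-128-2* in limma, and 5.49% of the pairs had an unadjusted p under 0.05 with a lower ratio in Adar2-/-. From the most negative difference, miR-128-1* ranked 2 and miR-128-2* ranked 5 of the 91.

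The other pairs leaned the same way. The ratio of star to guide was lower in Adar2-/- for 69 of the 91 pairs and higher for 22, with a median difference of -0.33. The 91 pairs hold 86 distinct guides, so not all pairs are independent of each other. In 49.5% of the pairs the guide had a positive and the star a negative log2 fold change in edgeR, as for both miR-128 pairs. Without replicate 1 both ratios passed the threshold in limma, with a difference of -1.92 (adjusted p = 0.00030) for miR-128-1* and -1.39 (adjusted p = 0.0092) for miR-128-2*, together with 21 pairs in all, of which 14 were lower. Without Adar2-/- 3 the differences were -0.93 and -0.82 (adjusted p = 0.977 in limma for both).

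**Figure D3:**
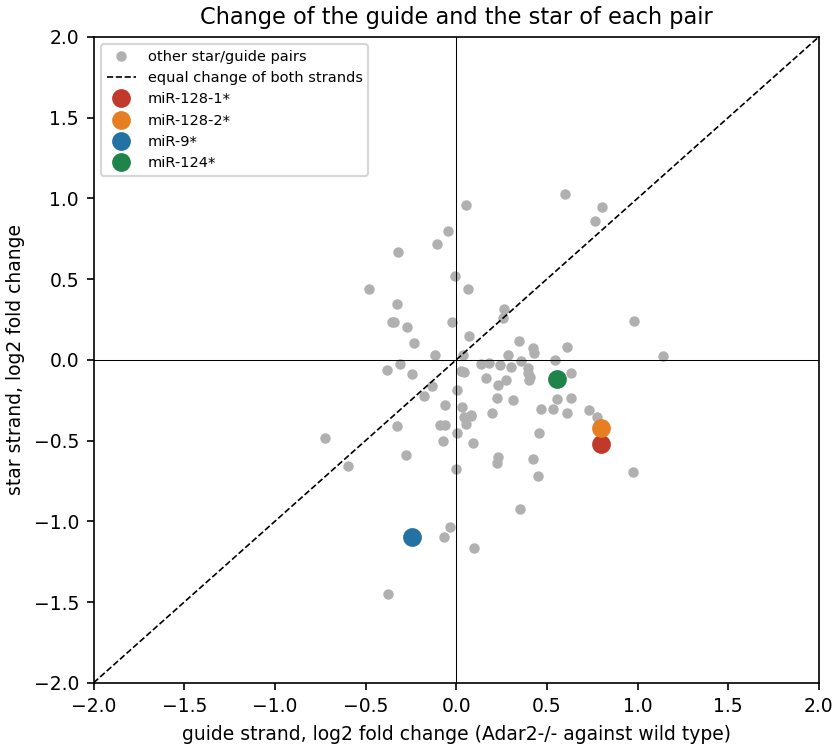
EdgeR log2 fold change of the guide (x axis) and of the star (y axis) in Adar2-/- against wild type for 91 star/guide pairs, with a dashed line for equal change of both strands. The miR-128 pairs stand at 0.80 for the guide and at -0.52 and -0.42 for the stars, in the quadrant that holds 49.5% of the pairs.

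In the level of star against guide the miR-128 pairs lay within the range of the others. Each ratio sets the star of a hairpin against a guide that both hairpins can supply. With both stars added, the log2 ratio to miR-128 averaged -2.98 over the 6 libraries. Averaged over the 6 libraries, miR-128-1* ranked 39 of the 91 pairs from the highest log2 ratio down at -3.16 and miR-128-2* ranked 64 at -6.15, around a median of -3.77. miR-9*, the star of the abundant neural miR-9, ranked 43 at -3.54, and miR-124*, the star of the neuronal miR-124, ranked 77 at -7.46. The change of these ratios in Adar2-/- was -0.66 for miR-9* (95% interval -1.70 to 0.38) and -0.62 for miR-124* (95% interval -1.63 to 0.39), with an adjusted p of 0.713 for either in limma.

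Set against these pairs, the change of the miR-128-1* ratio minus that of miR-9* was -0.58, and minus that of miR-124* it was -0.62, on the log2 scale. For miR-128-2* the corresponding values were -0.42 and -0.46. None of the 4 differences passed (two-sided exact permutation tests with 3 libraries against 3, unadjusted p = 0.4 to 0.6, adjusted p = 0.6 for all 4), in a design whose smallest p is 0.1. Since 0.1 lies above the threshold, no difference could have passed with 3 brains per genotype. These tests therefore cannot decide whether the ratio changed differently in the miR-128 pairs and in the miR-9 and miR-124 pairs. In size, each of the 4 differences was smaller than the SD within either genotype, which ran from 0.50 to 1.11 (n = 3).

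Among 10 other miRNAs enriched in neurons or neural tissue, 0 passed in edgeR, 0 had an unadjusted p under 0.05, 6 had positive and 4 negative log2 fold changes, and the median was 0.06 against 0.0023 over all 399. The highest value was that of miR-137, a miRNA of neuronal maturation, at 0.98 (standard error 0.446, adjusted p = 0.988 in edgeR). It stood at 612, 511 and 377 RPM in wild type 1 to 3 and at 500, 836 and 1621 RPM in Adar2-/- 1 to 3, and like miR-128 it was highest in Adar2-/- 3 and next in Adar2-/- 2. miR-124, a hallmark of differentiated neurons, stood at 0.56 (standard error 0.409).

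miR-212-3p, which is induced by neuronal activity, stood at 0.57 and its cluster partner miR-132 at -0.24. miR-9 stood at -0.25 and miR-129-5p at the lowest value of the list, -0.63. miR-138, of dendritic spines, miR-134, which limits spine growth, miR-153 and miR-218 lay between -0.05 and 0.20. The summed level of the 10, most of it miR-9, lay between 169439 and 200267 RPM in the wild-type and between 160903 and 178667 RPM in the Adar2-/- libraries. miR-27a and miR-27b, which share the 5′ stretch of miR-128, stood at -0.04 (standard error 0.339) and 0.43 (standard error 0.340), with an adjusted p of 0.989 and 0.988 in edgeR.

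The pattern of the guide across the 6 libraries was shared by many miRNAs. The closest by Pearson's correlation of log2 RPM were let-7i (r = 0.995, Spearman's rho 1.00), let-7g (r = 0.986), miR-335-5p (r = 0.984), miR-181a (r = 0.981) and miR-495 (r = 0.981). let-7i stood at 1078, 670 and 713 RPM in wild type 1 to 3 and at 738, 1164 and 1857 RPM in Adar2-/- 1 to 3, the same order of libraries as miR-128. Of the 396 miRNAs compared, 40 had r over 0.9, and the median r was 0.28. These values describe 6 libraries whose totals all miRNAs share.

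**Figure D4:**
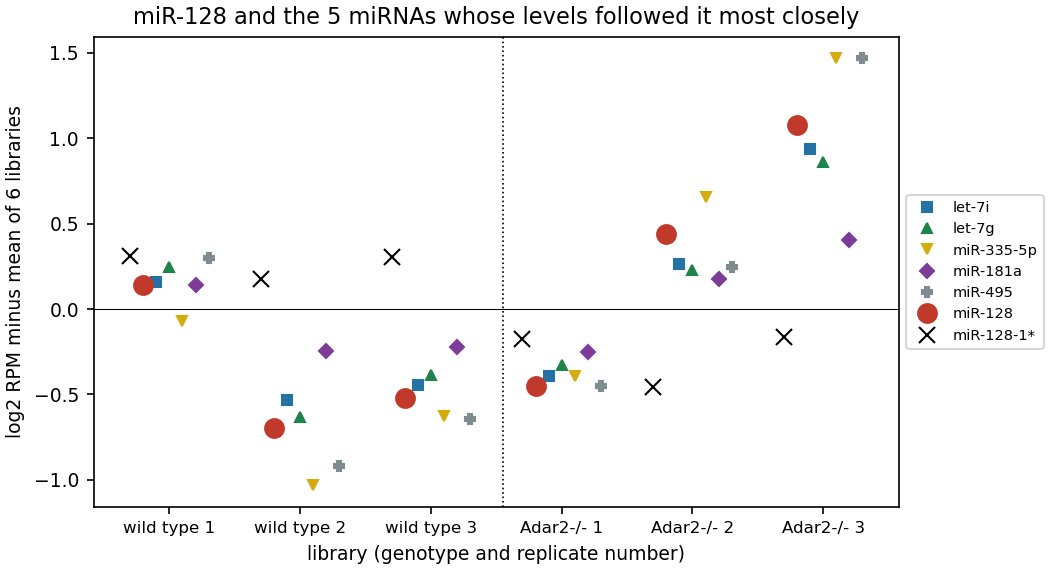
Log2 RPM minus the mean of the 6 libraries (y axis) for miR-128, the 5 miRNAs whose levels followed it most closely and miR-128-1*, by library (x axis). Each symbol is the value of a library, and a dotted line separates the genotypes. miR-128 and the 5 others were highest in Adar2-/- 3, whereas miR-128-1* stood above its mean in all wild-type libraries and below it in all Adar2-/- libraries.

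miR-128-1* did not follow its guide (r = -0.50 over the 6 libraries). Its closest miRNAs were miR-495* (r = 0.861), miR-497* (r = 0.834), miR-466i-5p (r = 0.806), miR-1937a (r = 0.770) and miR-99b* (r = 0.757), of which the first, second and last are star strands, and 0 of the 396 reached 0.9. All 5 had negative log2 fold changes in edgeR, from -1.45 to -0.44. They were picked for likeness to miR-128-1* over the same 6 libraries. Since miR-128-1* was lower in all Adar2-/- libraries, the shared direction is not independent of that choice. miR-497* stood at 132, 90.7 and 120 RPM in wild type 1 to 3 and at 28.1, 49.1 and 48.3 RPM in Adar2-/- 1 to 3.

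miR-128-2* had r = 0.19 with the guide and r = 0.56 with miR-128-1*. Its closest miRNAs were miR-667* (r = 0.962), miR-9* (r = 0.960), miR-375 (r = 0.938), miR-129-5p (r = 0.928) and miR-374 (r = 0.919). Each of them was, like miR-128-2* itself, highest in wild type 1. For miR-375 Spearman's rho was 0.37, so that its likeness to miR-128-2* lay in that library.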

How the data were processed

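Per the labels and methods, small RNAs of 19 to 25 nucleotides from whole brain were ligated to adaptors, amplified with 15 PCR cycles and read over 36 bases. The authors trimmed adaptors with Cutadapt, mapped reads with NextGenMap to miRBase release 16 at 90% identity or more, dropped reverse-strand hits and weighted multiple hits. They deposited raw counts per mature miRNA, without normalization, in 3 tables with a wild-type and an Adar2-/- column each. Columns were matched to samples by genotype and replicate number, and 12 blank lines were dropped.

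Counts were tested with edgeR 4.0.16 (glmQLFit, glmQLFTest) in R 4.3.3 on the 399 miRNAs that reached 100 reads in all 6 libraries, with total mapped reads as library size and no block. Its standard errors are the log2 fold change divided by the root of F. Log2 ratios of star to guide, with 0.5 reads added to each, were fitted with limma 3.58.1 over 91 pairs. For single values, exact permutation tests (two-sided) were used. Hairpins were folded with RNAfold 2.7.2. DESeq2 1.42.0, TMM factors, library totals that omit the 5 most abundant miRNAs, other minimum reads, another pseudocount, a replicate block and left-out libraries were tried as alternatives. The 399 miRNAs and 91 pairs were kept except under other minimum reads, with 608 miRNAs and 168 pairs at 10 reads and 1042 miRNAs with no minimum. Procedures were tested on simulated counts, drawn for each miRNA independently with the dispersion fitted to these data. Such counts hold no library that stands apart over many miRNAs. The members and the lists were chosen with earlier results of these data known. Named miRNAs are the members, the 5 closest to each by Pearson's r, 10 neuron-enriched miRNAs, miR-27a, miR-27b, miR-9* and miR-124*. miR-212 was read as miR-212-3p. Cell type markers not named in the report (oligodendrocyte, vascular, blood, choroid plexus, muscle and liver) had 0 calls among those tested (2 of 3 for blood, 1 of 3 for choroid plexus, 0 of 1 for liver and all others), and none was at 0 in all libraries.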

Additional observations from a re-analysis of the deposited data

How the results depend on the processing

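Under DESeq2, TMM factors, totals that omit the 5 most abundant miRNAs, other minimum reads and the block, the log2 fold changes of the 3 members kept their direction and none passed the threshold. The deviations of same-numbered libraries from their group means correlated at -0.08 to -0.0010. With so few libraries per genotype, these values cannot decide whether the replicate numbers pair the libraries. With the replicate block the log2 fold changes were 0.73 for miR-128, -0.53 for miR-128-1* and -0.37 for miR-128-2*, with 0 miRNAs called, and the block changed no call. DESeq2 called 1 miRNA in place of 0, and 40 had an unadjusted p under 0.05. With libraries or replicate numbers left out, the count of calls ran from 0 to 18, the log2 fold change of miR-128 from 0.28 to 1.40, that of miR-128-1* from -0.57 to -0.43 and that of miR-128-2* from -0.71 to -0.01. The differences in the ratio to the guide then ran from -1.92 to -0.83 for miR-128-1* and from -1.42 to -0.82 for miR-128-2*, and they passed only without replicate 1. The difference in the ratio between the stars ran from -0.53 to 0.10, and it was positive without wild-type replicate 3 (0.05) and without replicate 3 (0.10). The log2 ratio of miR-128-1* to miR-128-2* ran from 2.89 to 3.08, with an exact p of 0.0625 or 0.125, the smallest that 5 or 4 libraries allow. The same-direction rule gave 39 miRNAs, 61 with TMM factors, 69 with a minimum of 10 reads, 52 with totals that omit the 5 most abundant miRNAs and 46 to 176 with a replicate number left out. miR-128-1* was lower by the rule under every one of these settings, miR-128-2* was lower by it with the totals that omit 5 miRNAs and without replicate 3, and miR-128 was higher by it without replicate 1.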
